A study of Mus musculus domesticus and Mus musculus domesticus x Mus musculus castaneus and Mus musculus castaneus with 27 samples.

Results

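The 10 genes described here, Cartpt, Sst, Npy, Tac1, Penk, Gal, Calca, Calcb, Adcyap1 and Nts, encode precursors of neuropeptides. They were given as a list of symbols and matched through GENCODE M21 to the identifiers of a count table of 27071 genes, and all 10 were found. The list was chosen by the measured CPM of Cartpt and Sst, which differ between strains in the motor neurons of these data. Levels and differences of these 2 genes in motor neurons are therefore a description with no test, and tests that involve motor neurons are given for the other 8.

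Polyadenylated RNA was sequenced from undifferentiated pluripotent stem cells (PSC) and from motor neurons (MN), the neurons that drive muscle, differentiated in culture, to describe the transcriptional identity of the cell lines. The genotypes were C57BL/6 (BL6), CAST/EiJ (CAST), 129S6/SvEv (129) and first-generation hybrids of CAST and 129 labelled CAS129 and 129CAS, for which the parent that was the mother is not stated. There were 2 BL6, 2 CAST and 2 CAS129 PSC libraries, and 7 BL6, 1 CAST, 2 129, 3 CAS129 and 1 129CAS MN libraries. The labels name no drug, transgene or time, and do not say that replicates came from separate cultures, so a p-value measures only the spread between these libraries, which may be technical. Total counts, in units of 1e6, were 4.5 to 13.62 in PSC and 5.61 to 44.57 in MN. They were highest in the 129 MN (41.75 and 44.57) and 129CAS MN (25.69) libraries and lowest among MN in CAS129 (5.61 to 6.29). Levels are in CPM, counts per 1e6 counts of the library, after TMM scaling over 20 libraries. In bulk RNA, fewer cells of a type and less RNA per cell cannot be told apart.

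The libraries labelled MN held neuronal RNA together with RNA of other kinds of cell. The 12 motor neuron markers summed to 337.9 to 2280 CPM in MN libraries against at most 42.16 CPM in PSC. Prph and Ret had the highest means among them in every MN group, at 547.9 and 196.1 CPM in BL6 MN. Mnx1 (4.524 CPM), Isl2 (3.234) and Chat (9.558) had low means in BL6 MN, while Slc18a3 (85.39), Slc5a7 (96.92) and Ache (87.92) had higher ones. The 12 markers of mesenchyme and fibroblasts summed to 17540 to 58090 CPM in MN. Lhx3, a transcription factor among these motor neuron markers, was at 0 in all 4 hybrid MN libraries. It was also low in the strains, at 0.1262 to 4.065 CPM in BL6 MN, 0.8638 CPM in CAST MN and 0.1991 and 0.2105 CPM in 129 MN. Map2, a neuronal microtubule protein, was at 0 in the 4 hybrid MN libraries too, against 203 to 747.9 CPM in BL6 MN and 538.4 CPM in CAST MN. Of 8977 genes at 10 CPM or more in the CAST and both 129 MN libraries, 472 (5.26%) were under 1 CPM in all 3 CAS129 MN libraries and 482 (5.37%) in the 129CAS MN library, against 22 (0.245%) in all 7 BL6 MN libraries. In PSC, 418 of 7733 genes (5.41%) at 10 CPM or more in the BL6 and CAST libraries were under 1 CPM in both CAS129 libraries. Those CPM limits were chosen after the data were seen, and low values in a hybrid are read below beside these shares. No source used here says whether reads of the hybrids were aligned or counted in another way than those of the strains, so a value near 0 in a hybrid cannot be taken as absence of the RNA.

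Neuropeptides are made as long precursors that enter dense-core vesicles, where proprotein convertases cut them after pairs of the basic residues lysine and arginine. Carboxypeptidases then trim the ends, and many peptides are amidated before release. They act on G-protein-coupled receptors and mostly accompany a fast transmitter such as glutamate or GABA. In the spinal cord, somatostatin, dynorphin and enkephalin mark sets of interneurons, substance P, CGRP and PACAP are prominent in sensory neurons, and CGRP is also made by motor neurons.

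The cutting sites can be seen in the coding sequences of the genes on which the results turn. The following stretches, read 5′ to 3′ on the coding strand from 1 GENCODE M21 transcript of each gene (build GRCm38), run to the last coding codon. Capitals mark every run of 2 or more adjacent in-frame codons for lysine or arginine. They are shown because precursors are cut at some of these runs, while others lie inside the active peptides.
Sst, codons 57 to 116: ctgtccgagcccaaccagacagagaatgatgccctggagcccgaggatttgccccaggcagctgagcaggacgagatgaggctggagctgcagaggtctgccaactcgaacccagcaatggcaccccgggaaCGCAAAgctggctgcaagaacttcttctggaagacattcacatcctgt
Cartpt, codons 35 to 129: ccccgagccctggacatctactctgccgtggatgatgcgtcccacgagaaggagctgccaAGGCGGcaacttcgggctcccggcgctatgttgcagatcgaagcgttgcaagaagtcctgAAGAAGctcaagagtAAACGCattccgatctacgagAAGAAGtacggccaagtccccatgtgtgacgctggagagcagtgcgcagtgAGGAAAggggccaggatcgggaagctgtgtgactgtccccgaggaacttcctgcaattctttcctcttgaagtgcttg
Adcyap1, codons 116 to 175: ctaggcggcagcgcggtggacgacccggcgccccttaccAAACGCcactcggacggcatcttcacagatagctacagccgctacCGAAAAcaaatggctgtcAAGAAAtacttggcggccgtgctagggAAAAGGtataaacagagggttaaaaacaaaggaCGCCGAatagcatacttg
Sst has 1 such run in its whole coding sequence of 116 codons, and what follows it encodes the short form of somatostatin. Cartpt has 5 in 129 codons, all within the stretch shown, which encodes the CART peptides. The stretch of Adcyap1 holds 5 of its 8 runs, and PACAP begins right after the first run shown and spans later ones. Calca and Calcb are neighbouring paralogs whose longest shared coding stretch, 61 bases, begins just before the CGRP sequence: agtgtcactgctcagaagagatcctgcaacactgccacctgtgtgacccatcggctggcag. Of all windows of 50 bases in their exons, 12 were the same in both genes, which is 0.73% of those of Calca and 0.95% of those of Calcb. Calca also encodes calcitonin by alternative splicing, and counts per gene do not separate the products.

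Positions are whole annotated genes on GRCm38. Cartpt (ENSMUSG00000021647) lies on chromosome 13 from 99898489 to 99901091 and Sst (ENSMUSG00000004366) on chromosome 16 from 23889573 to 23890958. On chromosome 6, Npy (ENSMUSG00000029819) spans 49822710 to 49829507 and Tac1 (ENSMUSG00000061762) spans 7554879 to 7565834. Penk (ENSMUSG00000045573) lies on chromosome 4 from 4133531 to 4138819 and Gal (ENSMUSG00000024907) on chromosome 19 from 3409915 to 3414544. On chromosome 7, Calca (ENSMUSG00000030669) spans 114631478 to 114636357 and Calcb (ENSMUSG00000030666) spans 114718643 to 114723365. Adcyap1 (ENSMUSG00000024256) lies on chromosome 17 from 93199017 to 93206537 and Nts (ENSMUSG00000019890) on chromosome 10 from 102481756 to 102490486. Penk overlaps A830012C17Rik, which lies on the opposite strand and is also in the table. No source used here says whether counting used strand, so Penk values are uncertain. A830012C17Rik was at 0.6077 to 7.321 CPM in BL6 MN and at most 0.5399 CPM in the other MN libraries.

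In PSC, most of these genes were at or near 0. Cartpt had 2 counts, both in 1 BL6 library, and Sst had 2 counts, both in 1 CAS129 library. Nts had 1 count, in CAST, and Adcyap1 had 2 in BL6, 2 in CAST and 0 in CAS129. Tac1 had 7 counts in 1 BL6 library and 0 elsewhere, and Npy had 17 in BL6, 5 in CAST and 0 in CAS129. A count of 0 over the 2 libraries of a genotype allows, by an exact Poisson interval of 95% that covers counting error only, up to 0.1375 CPM in BL6, 0.217 CPM in CAST and 0.3207 CPM in CAS129.

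Calca, Penk and Gal were the members measured well enough in PSC to be tested there. Calca was at 17.13 and 19.31 CPM in BL6 PSC, 3.328 and 16.41 CPM in CAST PSC, and 4.853 and 10.36 CPM in CAS129 PSC. Penk, the enkephalin precursor, was at 1.24 and 2.728 CPM in BL6, 2.505 and 2.884 CPM in CAST, and 0.1955 and 4.227 CPM in CAS129. Gal, the precursor of galanin, was at 0.2219 to 1.395 CPM over all 6 PSC libraries. None of the 3 passed the test in any of the 3 genotype comparisons in PSC, by the adjusted p of edgeR, at an unadjusted p under 0.05, or with DESeq2. Calca was called lower in CAS129 than in BL6 PSC once genes with low counts were kept in the test (-1.29, edgeR adjusted p = 0.044). Of all genes tested, 10.5% were called between CAST and BL6 PSC, 25.8% between CAS129 and BL6, and 2.27% were higher and 11.7% lower in CAS129 than in CAST. The log2 difference of Calca was -0.86 (SE 0.69) for CAST and -1.22 (SE 0.70) for CAS129 against BL6.

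MN were compared with PSC in the 3 genotypes that have both cell types, 17 libraries in all, in a fit that includes genotype. All 8 genes tested rose in MN by the quasi-likelihood test of edgeR, where 36.1% of 15596 genes tested rose and 38.5% fell. Their median log2 change was 2.88, against -0.05 for all genes tested. Leaving out single libraries gave 6 to 8 genes. The test took genes at 1 CPM or more in 2 or more libraries, and only Calca, Gal and Penk reached that in PSC alone. The other genes needed MN libraries, where they are high, so for them a rise was nearly fixed beforehand. The count of 8 beside 36.1% is therefore a description. RNA of PSC and MN was extracted with different kits, so cell type and kit cannot be told apart.

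**Figure D1:**
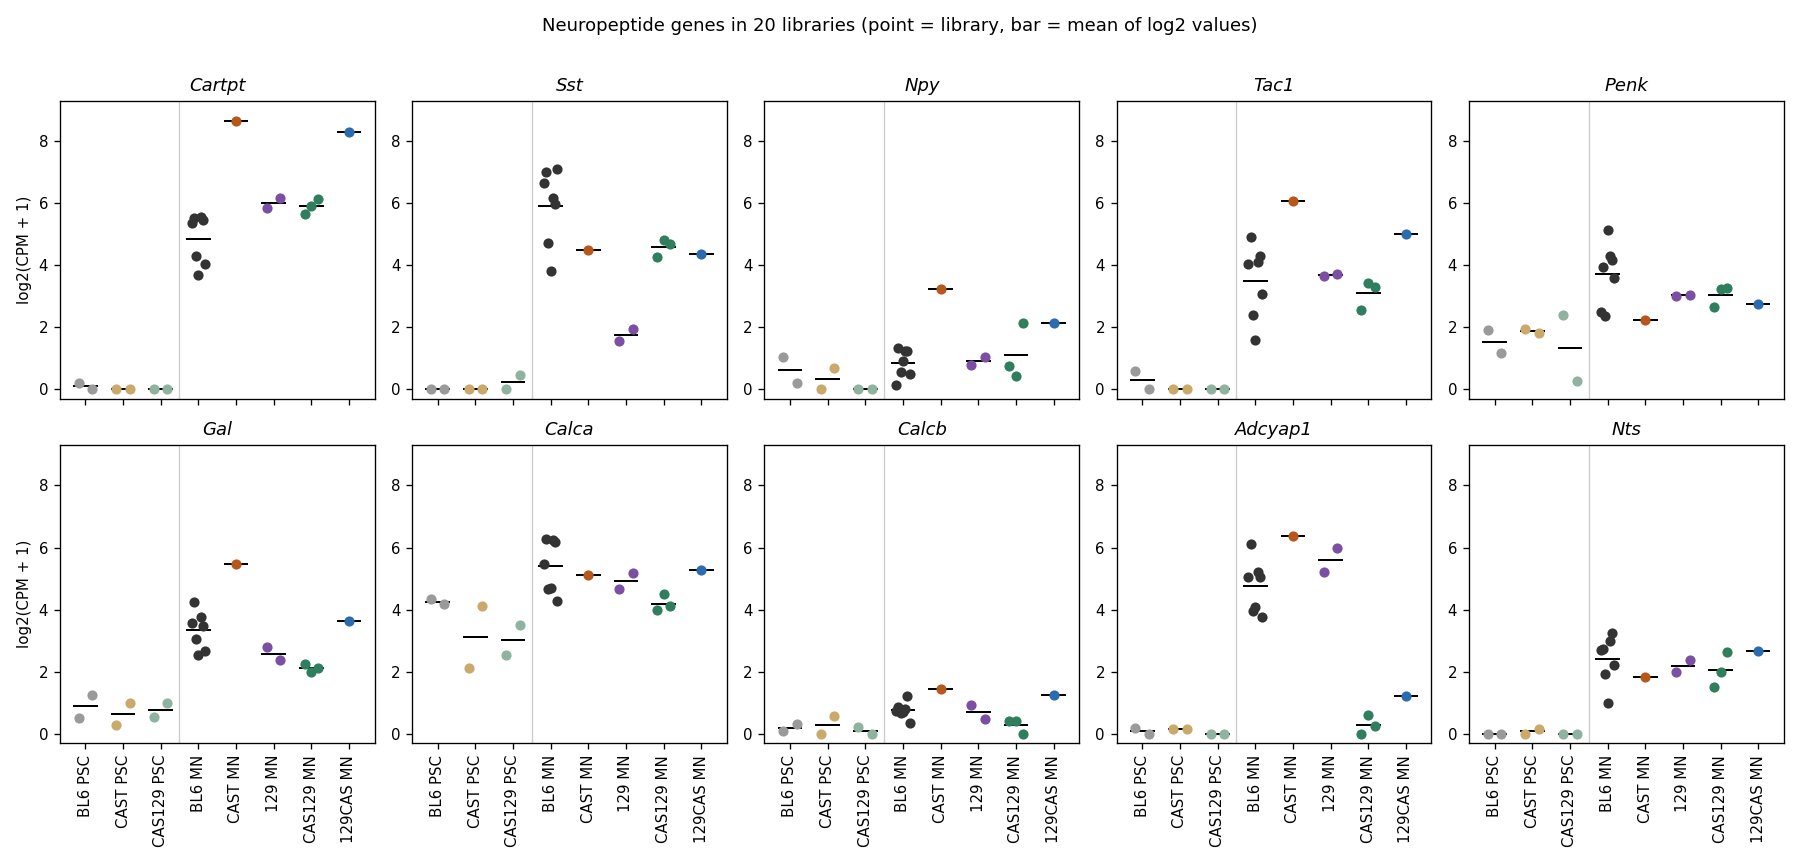
Level of each neuropeptide gene as log2(CPM + 1) on the vertical axis, by genotype and cell type on the horizontal axis; each point is 1 of 20 libraries and each bar the mean of the log2 values. Cartpt is highest in the CAST and 129CAS MN libraries, Sst is highest in BL6 MN and lowest in 129 MN, and Adcyap1 is near 0 in the hybrid MN libraries.

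As a description, the fitted log2 difference of MN from PSC was 11.16 (SE 0.69) for Cartpt and 9.71 (SE 0.89) for Sst. With so few counts in PSC, the size of these differences rests on the PSC libraries. The pooled ratio of Cartpt was 2099 (counting interval 580.8 to 17330, from 6719 MN and 2 PSC counts). For Sst it was 1701 (470.5 to 14050, from 5444 and 2 counts). Among the tested genes, Adcyap1 rose by 8.67 (SE 0.72, edgeR adjusted p = 1.0e-08). Tac1, the precursor of substance P, rose by 7.06 (SE 0.90, edgeR adjusted p = 1.6e-06), and Nts, the precursor of neurotensin, by 6.82 (SE 0.78, edgeR adjusted p = 4.9e-07).

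Gal rose by 3.65 (SE 0.56, edgeR adjusted p = 1.3e-05). The smaller rises were 2.11 for Calcb, which encodes a second form of CGRP (SE 0.67, edgeR adjusted p = 0.0084), 2.11 for Npy, the precursor of neuropeptide Y (SE 0.86, edgeR adjusted p = 0.035), 1.85 for Penk (SE 0.63, edgeR adjusted p = 0.014) and 1.29 for Calca (SE 0.38, edgeR adjusted p = 0.0051). Npy was no longer called when the hybrid libraries were left out (1.66, edgeR adjusted p = 0.13). It was also lost without any 1 of BL6 PSC replicate 2, either CAST PSC library, either CAS129 PSC library, the CAST MN library or CAS129 MN replicate 3, with 0.204 the highest edgeR adjusted p. Penk was lost without BL6 PSC replicate 2 (1.46, edgeR adjusted p = 0.058).

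Within single genotypes, 7 of these 8 rose in BL6 (36.0% of all genes rose), 5 in CAST (30.3%) and 4 in CAS129 (30.4%). The limit of the filter given above holds for these counts too. In BL6, Npy did not pass (log2 0.49, SE 0.97, edgeR adjusted p = 0.67), at 0.155 and 1.077 CPM in PSC and 0.09748 to 1.524 CPM in MN. The BL6 calls of Calca (edgeR adjusted p = 0.043) and Calcb (edgeR adjusted p = 0.045) lay close to the threshold and were lost in 12 and 13 of the 20 fits that left out 1 library, with edgeR adjusted p up to 0.196 and 0.242. Calcb was also lost there with no filter on low counts (2.33, edgeR adjusted p = 0.057). Penk in BL6 was lost without BL6 PSC replicate 2 (2.36, edgeR adjusted p = 0.075). In CAST, with a single MN library, Calca, Calcb and Penk did not pass; Penk was at 3.671 CPM in MN and 2.505 and 2.884 CPM in PSC. Calca was called with no filter on low counts (1.98, edgeR adjusted p = 0.03) and Calcb with RLE scaling (2.85, edgeR adjusted p = 0.049). Without CAST PSC replicate 2, Calca (3.33, edgeR adjusted p = 0.0095) and Calcb (7.47, edgeR adjusted p = 0.011) were called, and without CAST PSC replicate 1 Npy was lost (3.71, edgeR adjusted p = 0.067). In CAS129, Adcyap1, Calca, Calcb and Penk did not pass. The CAS129 call of Npy was lost without either CAS129 PSC library or CAS129 MN replicate 3 (edgeR adjusted p = 0.11 to 0.12), and that of Gal without either CAS129 PSC library or CAS129 MN replicate 1 (edgeR adjusted p = 0.054 to 0.17). Penk in CAS129 was called without CAS129 PSC replicate 1 (5.06, edgeR adjusted p = 0.017). Over the fits without 1 library, 4 to 7 of the 8 rose in BL6, 4 to 7 in CAST and 2 to 4 in CAS129.

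For the 8 genes other than Cartpt and Sst, a test was also made of whether genotypes differ in the rise from PSC to MN. None passed with edgeR for CAS129 against BL6 (18.2% of all genes were called) or for CAST against BL6 (7.28%). At an unadjusted p under 0.05 there were 1 and 3 genes. Nts had 0 counts in BL6 and CAS129 PSC, and Adcyap1 had 0 in CAS129 PSC. In the edgeR test of CAS129 against BL6 their SE was 1025 and 53.14, so that test cannot decide for these genes. DESeq2 called Adcyap1 for CAS129 (log2 -6.10, DESeq2 adjusted p = 0.022), and Tac1 (5.89, DESeq2 adjusted p = 0.035) and Gal (2.78, DESeq2 adjusted p = 0.047) for CAST. Gal was also called by edgeR for CAST without BL6 PSC replicate 1 (3.36, edgeR adjusted p = 0.033) or BL6 MN replicate 2 (2.94, edgeR adjusted p = 0.045).

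Cartpt, whose CART peptides are known from feeding, reward and stress circuits and from sympathetic preganglionic neurons, was far higher in a pair of MN libraries, CAST and 129CAS, than in the rest. In BL6 MN it was at 11.74 CPM in the lowest, 40.06 CPM in the median and 45.63 CPM in the highest of 7 libraries (mean 31.29 ± 15.19, SD). The CAST MN library was at 398.2 CPM and the 129CAS MN library at 313.5 CPM. The 129 libraries were at 56.98 and 71.17 CPM, and the CAS129 libraries at 48.95, 59.51 and 68.66 CPM.

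The order of Cartpt means was CAST, 129CAS, 129, CAS129, BL6. The 129 and CAS129 libraries overlapped. CAST and 129CAS are single libraries, so overlap between them could not be seen. As a description, the fitted log2 difference from BL6 was 3.59 (SE 0.45) for CAST, 0.89 (SE 0.41) for 129 and 0.81 (SE 0.37) for CAS129. The hybrids stood apart from each other, with 129CAS above CAS129 by a log2 of 2.26 (SE 0.56). CAS129 lay at the level of the 129 parental strain (log2 -0.09, SE 0.49), and the CAST library held 1.27 times the Cartpt of the 129CAS library (counting interval 1.221 to 1.321). For both CAST and 129CAS there is 1 MN library, so their own spread between replicates is not measured.

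Sst, the precursor of somatostatin, an inhibitory peptide of interneurons, had another order. In BL6 MN it was at 13.0, 71.08 and 135.2 CPM in the lowest, median and highest library (mean 76.27 ± 47.37, SD). The 129 libraries were at 1.918 and 2.862 CPM. CAST was at 21.7 CPM, 129CAS at 19.43 CPM, and CAS129 at 18.18, 24.81 and 27.33 CPM.

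The 129 libraries were below every other MN library in Sst. BL6, CAS129 and CAST libraries overlapped, since BL6 replicates 3 and 4, at 25.16 and 13.0 CPM, fell to the level of the CAST and hybrid libraries. The fitted log2 difference from BL6 was -5.13 (SE 0.88) for 129, -1.88 (SE 0.98) for CAST and -1.80 (SE 0.60) for CAS129. CAS129 was above its 129 parental strain by 3.33 (SE 0.84), and 129CAS differed from CAS129 by -0.42 (SE 0.93), less than its SE. The 129 MN libraries are also the deepest, and their 197 Sst counts give 2.375 CPM with a counting interval of 2.055 to 2.731.

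Levels were also set per length of all annotated exons of a gene, which compares genes only roughly. This length can exceed that of any transcript, which sets such genes lower. For Tac1 it is 3399 bases, while its transcripts with a whole coding sequence have 691 to 1230 bases. In CPM per kilobase, Sst led in BL6 MN (105.8, against 28.26 for Calca and 24.5 for Cartpt). In CAST MN Cartpt led (311.8, against 55.36 for Gal and 30.1 for Sst). In 129 MN Cartpt was at 50.18, Calca at 17.57 and Sst at 3.315 CPM per kilobase. In CAS129 MN Cartpt was at 46.23 and Sst at 32.51, and in 129CAS MN at 245.5 and 26.94 CPM per kilobase.

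Among the 8 tested genes, CAST MN differed from BL6 MN in 2, both higher, where 5.76% of 14837 genes tested were higher and 6.58% lower. Npy was at 8.314 CPM in CAST against 0.09748 to 1.524 CPM in BL6 (log2 3.16, SE 0.80, edgeR adjusted p = 0.021). Gal was at 43.62 CPM against 4.796 to 17.79 CPM (2.07, SE 0.44, edgeR adjusted p = 0.0081). Tac1, at 65.65 CPM in CAST and 2.02 to 28.76 CPM in BL6, did not pass (2.24, SE 0.72, edgeR adjusted p = 0.06). Adcyap1 did not pass either, at 81.09 CPM in CAST and 12.66 to 68.5 CPM in BL6 (1.35, SE 0.62, edgeR adjusted p = 0.17).

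For Npy, Tac1, Gal, Calcb and Adcyap1 the CAST library lay above all 7 BL6 libraries, as it did for 25.9% of all genes tested. Penk, at 3.671 CPM, lay below all 7, as 20.8% of genes did. Tac1 and Adcyap1 were called once BL6 MN replicate 2, the library highest in both, was left out (edgeR adjusted p = 0.011 and 0.017). Tac1 was also called without BL6 MN replicate 4 (edgeR adjusted p = 0.037). The 10 pan-neuronal markers summed to 12320 CPM in CAST MN and 3981 to 12600 CPM in BL6 MN. The part of this difference in the CAST and BL6 peptide levels was not tested.

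**Figure D2:**
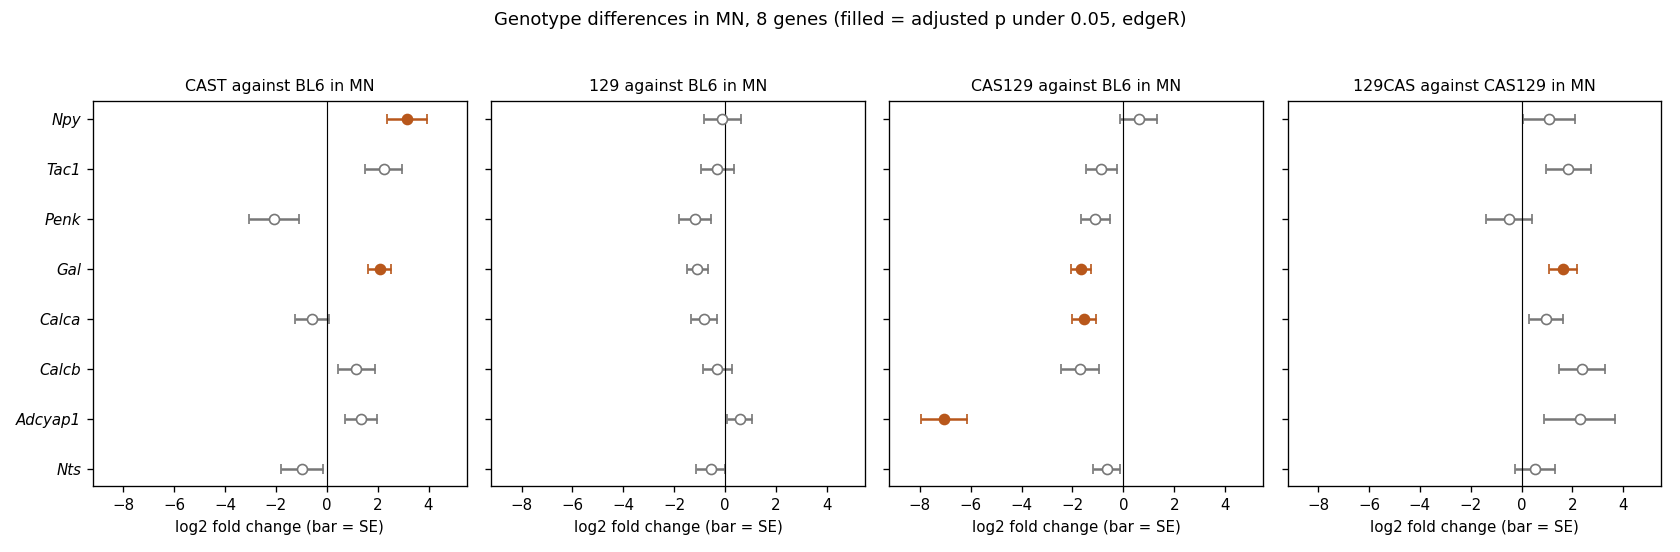
Fitted log2 fold change (horizontal axis, bars are SE) of the 8 tested neuropeptide genes (vertical axis) in 4 genotype comparisons in MN; filled points have an edgeR adjusted p under 0.05. Npy and Gal are higher in CAST than in BL6, and Adcyap1, Gal and Calca are lower in CAS129 than in BL6.

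None of the 8 passed between 129 and BL6 MN with edgeR, where 18.3% of all genes were higher and 18.1% lower. At an unadjusted p under 0.05 there was 1, Gal, which DESeq2 called (log2 -1.12, DESeq2 adjusted p = 0.02). It was at 4.156 and 5.965 CPM in 129 and 4.796 to 17.79 CPM in BL6 (-1.09, SE 0.41, edgeR adjusted p = 0.056). Gal was also called with RLE scaling (edgeR adjusted p = 0.049) and without any 1 of BL6 MN replicates 2, 3, 4 and 7 (edgeR adjusted p = 0.023 to 0.049). Tac1 and Npy levels in 129 lay within the BL6 range, with log2 differences of -0.30 (SE 0.65) and -0.10 (SE 0.74).

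CAS129 MN were lower than BL6 MN in 3 of the 8, where 32.5% of all genes were lower and 27.0% higher. Adcyap1 is the precursor of PACAP, a peptide that raises cyclic AMP through its receptor and is known from sensory and autonomic neurons. It was at 0, 0.1866 and 0.519 CPM in CAS129 and 12.66 to 68.5 CPM in BL6 (log2 -7.06, SE 0.90, edgeR adjusted p = 2.0e-05). Gal was at 2.941 to 3.739 CPM in CAS129 (-1.66, SE 0.40, edgeR adjusted p = 0.0032). Calca was at 14.79, 16.23 and 21.62 CPM in CAS129, and 18.6 to 75.92 CPM in BL6 (-1.54, SE 0.46, edgeR adjusted p = 0.011).

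The Gal libraries of the 2 genotypes did not overlap, nor did those of Adcyap1, while those of Calca did. Non-overlap with CAS129 lower was found for 24.8% of all genes tested. The call of Calca was lost without CAS129 MN replicate 1 (-1.43, edgeR adjusted p = 0.053). Penk was called lower without BL6 MN replicate 1 (-1.28, edgeR adjusted p = 0.049) or 3 (-1.27, edgeR adjusted p = 0.041), and Calcb without BL6 MN replicate 7 (-1.85, edgeR adjusted p = 0.044). All 10 pan-neuronal markers were lower in CAS129 than in BL6 by the same test, with sums of 1001 to 1367 CPM against 3981 to 12600 CPM and Map2 at 0. The 9 pluripotency markers in the table summed to 427 to 1084 CPM in CAS129 MN and at most 77.49 CPM in any other MN library. The part of these markers in the CAS129 values was not tested.

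Adcyap1 was low in both kinds of hybrid. CAS129 MN libraries held 4 counts of it in all, against 1979 in BL6, 751 in CAST and 4071 in 129, and the 129CAS library held 32 (1.317 CPM). The 129 libraries were at 35.91 and 63.11 CPM and the CAST library at 81.09 CPM, so each parental library was above every hybrid library. CAS129 libraries lay below both 129 libraries in 44.8% of all genes tested. The log2 difference of CAS129 from 129 was -7.63 (SE 0.95, edgeR adjusted p = 2.0e-05), where 31.4% of all genes were lower and 25.2% higher. By pooled counts, CAST held 61.57 times (counting interval 43.24 to 90.68) and 129 held 37.27 times (26.36 to 54.56) the level of 129CAS.

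Adcyap1 was 1 of the 472 genes at 10 CPM or more in the parental strains and under 1 CPM in CAS129, and the only one of the 4 neuropeptide genes that reached 10 CPM there. Cartpt, Tac1 and Calca reached it too and were all above 1 CPM in every hybrid library. The 129CAS library, at 1.317 CPM of Adcyap1, missed that limit. Within 1000000 bases of Adcyap1 the table held 1 other gene, Gm25935, at 0 in all MN libraries, so the data give no level of a neighbour to set beside it. The MN libraries gave 3 genes most like Adcyap1 by Pearson's r of log2(CPM + 1) over 14 libraries, a measure added after its values were seen: Pnmal1 (0.992), Mapk8ip3 (0.99) and Neurod1 (0.987). Neurod1, a neuronal transcription factor, was at 9.243 CPM in BL6, 17.17 in CAST, 16.02 in 129 and 0 in both hybrids.

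Between CAS129 and 129 MN the other 7 tested genes did not pass with edgeR, at an unadjusted p under 0.05 or with DESeq2. The log2 differences were 0.71 (SE 0.88) for Npy, 0.09 (SE 0.70) for Penk, -0.08 (SE 0.65) for Nts, -0.56 (SE 0.75) for Tac1, -0.57 (SE 0.48) for Gal, -0.72 (SE 0.55) for Calca and -1.41 (SE 0.83) for Calcb. The 129CAS library was above the CAS129 libraries in 1 tested gene, Gal, at 11.52 CPM against 2.941 to 3.739 CPM (log2 1.63, SE 0.55, edgeR adjusted p = 0.041), where 14.6% of all genes were higher. That call was lost with no filter on low counts (edgeR adjusted p = 0.052). It was also lost without BL6 MN replicate 1 or 6 or any 1 CAS129 MN library, with edgeR adjusted p up to 0.098. Tac1 was at 31.16 CPM in 129CAS and 4.929 to 9.86 CPM in CAS129 and did not pass (1.84, SE 0.88, edgeR adjusted p = 0.13). Calcb, at 1.399 CPM against 0 to 0.346 CPM, did not pass (2.39, SE 0.91, edgeR adjusted p = 0.065).

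Penk and Nts were detected in every MN library. Penk was at 4.133 to 34.21 CPM in BL6, with BL6 replicate 4 highest, and 3.671 to 8.582 CPM in all other MN libraries. Nts was at 1.01 to 8.455 CPM in BL6, 2.592 in CAST, 3.018 and 4.206 in 129, 1.869 to 5.224 in CAS129 and 5.309 in 129CAS. Neither passed in any MN genotype comparison of all 14 libraries, and for Nts every group's libraries lay within the BL6 range. Calcb was at most 1.728 CPM in any library, and CAS129 MN held 4 counts of it in all.

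The 7 BL6 MN libraries differed widely among themselves. The highest library exceeded the lowest by 15.6 times for Npy, 14.2 for Tac1, 10.4 for Sst, 8.37 for Nts, 8.28 for Penk, 5.41 for Adcyap1, 4.08 for Calca, 3.89 for Cartpt and 3.71 for Gal. The Npy ratio rests on 15 counts in replicate 2 and 1 count in replicate 1, so counting error alone makes its size uncertain. Replicate 2 was highest in Npy, Tac1, Gal, Calca and Adcyap1, and replicate 4 was lowest in Cartpt, Sst, Tac1, Gal and Nts while it was highest in Penk. Replicate 7 was lowest in Calca and Adcyap1 and highest in Sst. The summed level of the 10 genes in BL6 MN was 102.2 to 385.2 CPM, beside pan-neuronal sums of 3981 to 12600 CPM.

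Levels relative to Tubb3, a tubulin of neurons, were added after the data were seen, to give peptide RNA beside neuronal RNA in the same library. Tubb3 was at 400.7 to 1145 CPM in BL6, 1196 in CAST, 472.6 and 599.3 in 129, 281.1 to 334.3 in CAS129 and 796.8 in 129CAS MN. Per 100 CPM of Tubb3, Cartpt was at 2.929 to 7.381 in BL6, 11.88 and 12.06 in 129, 17.41 to 20.54 in CAS129, 33.31 in CAST and 39.35 in 129CAS. On this scale the BL6 libraries remained the lowest in Cartpt, CAS129 lay above 129, and 129CAS lay above CAST.

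Sst per 100 CPM of Tubb3 was at 3.244 to 27.62 in BL6, 6.469 to 8.518 in CAS129, 2.438 in 129CAS, 1.815 in CAST and 0.4059 and 0.4775 in 129. Gal was at 3.649 in CAST, above the BL6 range of 1.105 to 2.05, and at 0.9164 to 1.33 in CAS129, which overlapped it. Calca in CAS129, at 4.855 to 6.739, also lay within the BL6 range of 3.8 to 12.33. Adcyap1 was at most 0.1653 in any hybrid library and at least 2.587 in the others. Per 1000 CPM of the other 9 pan-neuronal markers, which leaves out Map2, CAS129 exceeded all BL6 libraries in Gal (2.384 to 3.734 against 1.228 to 1.931) and Calca (11.87 to 17.53 against 4.223 to 10.08). The 9 markers kept were themselves all lower in CAS129 than in BL6 MN, with Nefm at means of 393.4 and 2538 CPM. Leaving out Map2 therefore does not free that base of low hybrid values. On that base Cartpt was at 48.24 to 50.23 in CAS129, above the 33.79 of CAST, with BL6 at 3.033 to 6.26, 129 at 13.9 and 16.34 and 129CAS at 66.28. Sst was at 18.15 to 22.16 in CAS129, within the BL6 range of 3.359 to 30.7, with a mean of 19.49 against 12.18 in BL6. So the order of CAS129 and BL6 in Gal, Calca and mean Sst, and of CAS129 and CAST in Cartpt, turned with the neuronal genes used as the base. BL6 stayed lowest in Cartpt and 129 lowest in Sst on both.

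**Figure D3:**
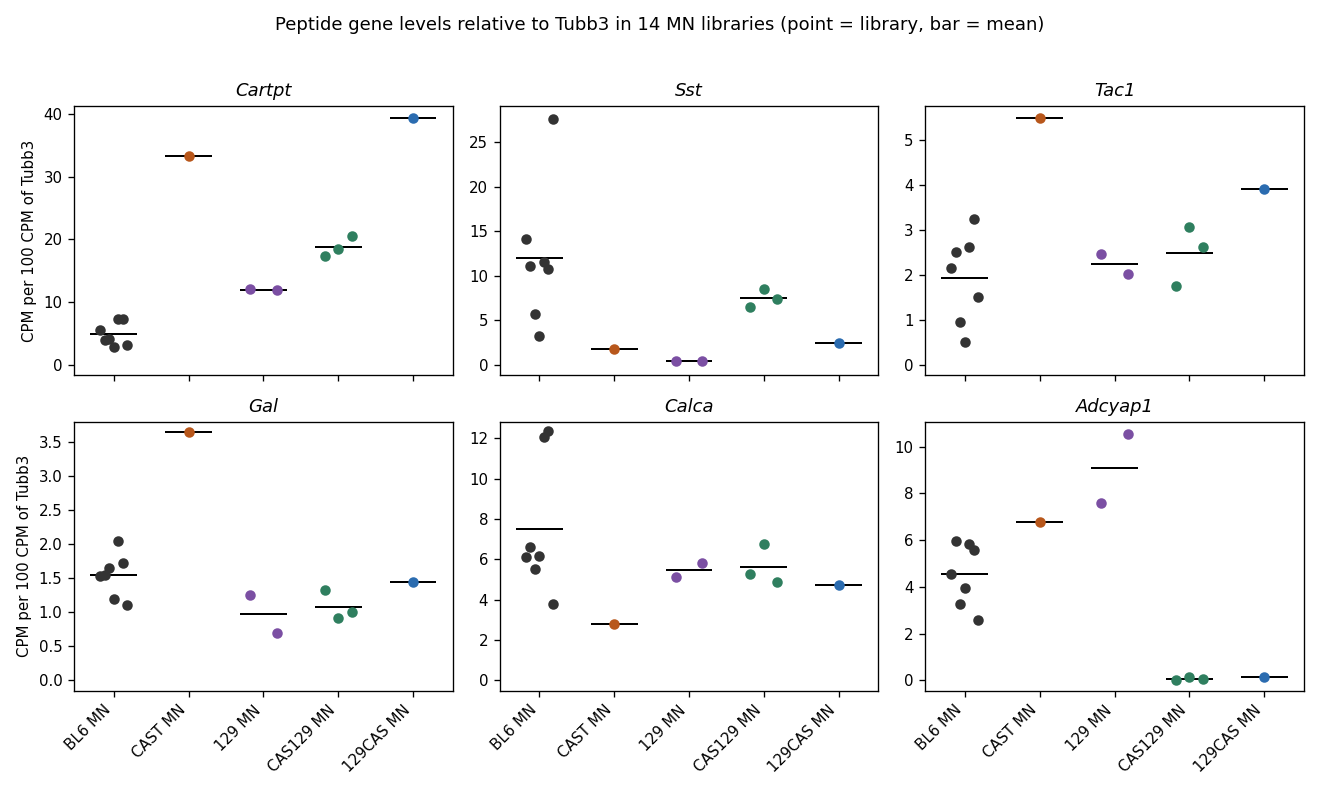
CPM of 6 neuropeptide genes per 100 CPM of Tubb3 (vertical axis, its own linear scale in each panel) by MN genotype; points are the 14 libraries and bars the means. Cartpt is lowest in BL6, Sst is lowest in 129, and Adcyap1 is near 0 in both hybrids.

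The genes that turn precursors into peptides were described from a list of 9. All 9 rose in MN against PSC, where 36.1% of all genes did, with a median log2 change of 2.27 against -0.05 over all genes tested. Of the 9, 7 passed the filter in PSC alone. Cpe, the carboxypeptidase that trims peptide ends, rose by 4.93 (SE 0.38, edgeR adjusted p = 4.4e-09), and Pam, the amidating enzyme, by 3.03 (SE 0.25, edgeR adjusted p = 8.2e-09). Furin, a convertase of the secretory pathway, rose by 1.63 (SE 0.17, edgeR adjusted p = 1.1e-07) and Cpd, a second carboxypeptidase, by 1.94 (SE 0.20, edgeR adjusted p = 1.4e-07).

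Between MN genotypes Cpe ranged from 556.1 CPM in CAST to 731.7 to 813.4 CPM in BL6 and 805.9 to 915.8 CPM in CAS129. It was lower than in BL6 in CAST (log2 -0.55, SE 0.16, edgeR adjusted p = 0.042) and 129 (-0.45, SE 0.12, edgeR adjusted p = 0.0092). Pam was at 551.8 and 647.4 CPM in 129 against 116.2 to 323.8 CPM in BL6 (1.61, SE 0.28, edgeR adjusted p = 0.0007) and 143.6 to 149.1 CPM in CAS129. In CAS129 against BL6, 5 of the 9 were lower, where 32.5% of all genes were, among them Furin (-0.54, SE 0.17, edgeR adjusted p = 0.016) and Cpd (-0.44, SE 0.16, edgeR adjusted p = 0.028). The summed level of the list was 1369 to 1491 CPM in CAS129, 1475 to 1687 in BL6, 1695 in 129CAS, 1801 in CAST and 1907 and 1971 in 129.

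Granins and other dense-core vesicle genes, a list of 10, all rose in MN, where 36.1% of all genes did, with a median log2 change of 7.57. Of the 10, 6 passed the filter in PSC alone, and for the others a rise was nearly fixed beforehand. Rab3c, a vesicle GTPase, rose by 11.92 (SE 0.50, edgeR adjusted p = 3.7e-11) and Scg2, a granin, by 11.55 (SE 0.58, edgeR adjusted p = 9.6e-11). Vgf, whose product is itself cut into peptides, rose by 7.65 (SE 0.62, edgeR adjusted p = 8.2e-09) and Ptprn, a vesicle membrane protein, by 3.99 (SE 0.40, edgeR adjusted p = 8.4e-08). In CAS129, 7 of 10 were lower than in BL6 (32.5% of all genes) and 7 of 10 lower than in 129 (31.4%), with Vgf at 231 to 379.1 CPM against 388.9 to 1462 CPM in BL6 (-1.45, SE 0.38, edgeR adjusted p = 0.0052). Against CAS129, 7 of 10 were higher in 129CAS (14.6% of all genes), including Rab3c at 867.3 CPM (2.88, SE 0.49, edgeR adjusted p = 0.0012).

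**Figure D4:**
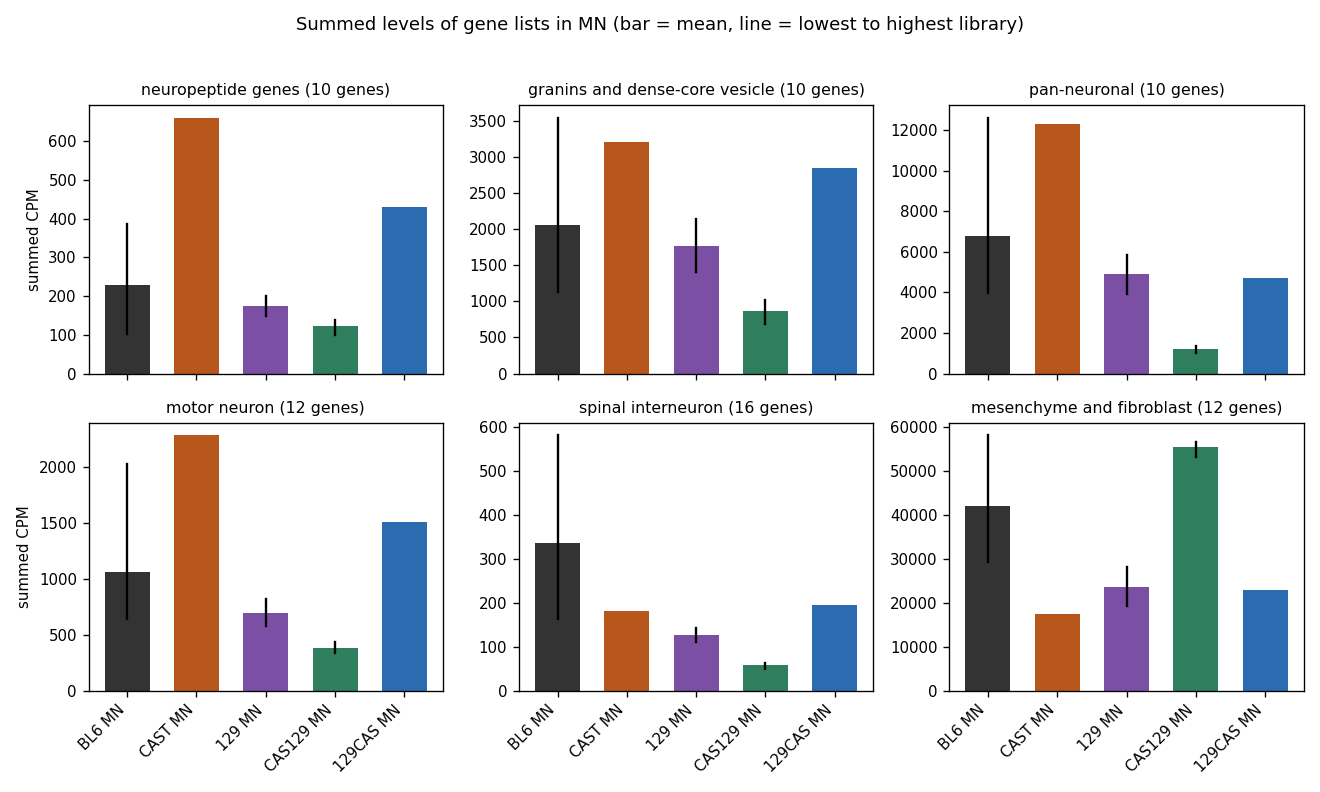
Summed CPM (vertical axis, starting at 0) of 6 gene lists by MN genotype; bars are means and vertical lines run from the lowest to the highest library of a group (CAST and 129CAS are single libraries). The neuropeptide, granin, pan-neuronal and motor neuron sums are lowest on average in CAS129, and the mesenchyme and fibroblast sum is highest there. The neuropeptide means of CAS129 and 129, 123.9 and 174.8 CPM, include 0.2352 and 49.51 CPM of Adcyap1. The pan-neuronal sum includes Map2, and values near 0 in hybrids cannot be taken as absence of the RNA.

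Of 28 receptor genes of these peptides in the table, 23 were tested in MN against PSC, 14 rose and 2 fell, where 36.1% of all genes rose and 38.5% fell. Only 10 passed the filter in PSC alone, and for the others a rise was nearly fixed beforehand. Sort1, which binds neurotensin, rose by 2.50 (SE 0.24, edgeR adjusted p = 6.4e-08) and Adcyap1r1, the PACAP receptor, by 5.79 (SE 0.39, edgeR adjusted p = 1.2e-09). Npy1r, a neuropeptide Y receptor, rose by 6.22 (SE 0.61, edgeR adjusted p = 6.9e-08) and Tacr1, the substance P receptor, by 9.36 (SE 0.60, edgeR adjusted p = 1.8e-08). Adcyap1r1 remained present in hybrids, at 60.67 to 67.46 CPM in CAS129 and 64.21 CPM in 129CAS, where its ligand gene was near 0. It was lower than in BL6 (80.27 to 226.6 CPM) in CAS129 (-1.13, SE 0.31, edgeR adjusted p = 0.0072) and in 129 (-1.01, SE 0.36, edgeR adjusted p = 0.043).

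Tachykinin receptors differed by genotype. Tacr3 was at 14.9 CPM in CAST and 0.6077 to 2.541 CPM in BL6 (log2 3.59, SE 0.54, edgeR adjusted p = 0.00072), and at 15.72 CPM in 129CAS against 1.7 to 5.41 CPM in CAS129 (2.25, SE 0.65, edgeR adjusted p = 0.021). Tacr1 was highest in 129, at 24.45 and 38.22 CPM against 4.619 to 13.25 CPM in BL6 (1.77, SE 0.29, edgeR adjusted p = 0.00041). It was lower in CAS129, at 3.806 to 4.664 CPM, than in 129 (-2.81, SE 0.38, edgeR adjusted p = 4.5e-05). Ntsr1, a neurotensin receptor, was higher in CAST than in BL6 (2.27, SE 0.68, edgeR adjusted p = 0.046). Ramp3, a partner of calcitonin-family receptors, was at 3.439 and 3.733 CPM in 129 and 0.1866 to 1.211 CPM in CAS129 (-2.09, SE 0.52, edgeR adjusted p = 0.0043).

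A list of other neuropeptide genes held 29 in the table, of which 17 were tested in MN against PSC; 6 rose and 8 fell, shares near the 36.1% and 38.5% of all genes. Pnoc, the nociceptin precursor, rose by a log2 of 10.75 (SE 0.52, edgeR adjusted p = 7.1e-11) and Vip by 8.91 (SE 0.69, edgeR adjusted p = 4.6e-09). Pdyn, the dynorphin precursor, rose by 4.61 (SE 0.75, edgeR adjusted p = 2.8e-05) and Sct, the secretin gene, by 1.84 (SE 0.57, edgeR adjusted p = 0.0077). Between genotypes, Pdyn was at 3.783 and 4.07 CPM in 129 against 4.291 to 48.88 CPM in BL6 (-2.58, SE 0.69, edgeR adjusted p = 0.011), and Pnoc was also lower in 129 (-1.24, SE 0.35, edgeR adjusted p = 0.014) and in CAS129 (-1.40, SE 0.30, edgeR adjusted p = 0.0015).

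Sct was at 40.25 CPM in 129CAS and 1.73 to 3.172 CPM in CAS129 (log2 3.94, SE 0.46, edgeR adjusted p = 6.9e-05), and higher in CAST than in BL6 (1.32, SE 0.39, edgeR adjusted p = 0.045). Cort, a paralog of Sst, was at 1.512 CPM in CAST and at most 0.3049 CPM in BL6 (3.61, SE 0.87, edgeR adjusted p = 0.017). In PSC, Cort was at 0.4437 and 7.391 CPM in CAST and 0.1436 and 0.3875 CPM in BL6. Trh, the precursor of thyrotropin-releasing hormone, was higher in CAS129 MN, at 33.4 to 115.6 CPM, than in BL6 MN at 19.06 to 50.41 CPM (1.24, SE 0.32, edgeR adjusted p = 0.0045) and 129 MN (2.30, SE 0.47, edgeR adjusted p = 0.0011). The PSC levels of Trh had the other order, at 103.1 and 155.5 CPM in BL6 and 2.933 and 3.444 CPM in CAS129.

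Markers of other cells that could carry these peptides were set beside them. The 16 spinal interneuron markers summed to 164.3 to 580.3 CPM in BL6 MN, 182.4 in CAST, 111.1 and 141.6 in 129, 49.63 to 64.18 in CAS129 and 195.7 in 129CAS. In 129 against BL6, 7 of 15 tested interneuron markers were lower (18.1% of all genes) and 1 higher (18.3%). In CAS129 against BL6, 11 of the 15 were lower (32.5% of all genes). The 8 sensory neuron and neural crest markers summed to 103.8 to 161.4 CPM in BL6, 260.1 in CAST, 220.9 and 231.7 in 129, 117.6 to 137.7 in CAS129 and 406.2 in 129CAS. Among them, Neurog1 was at 0 outside BL6 and at most 0.1016 CPM in BL6. CAST and 129CAS, highest in Cartpt and Tac1, were also the groups with the highest sensory and neural crest sums. The part of these cell types in the Cartpt, Sst and Tac1 levels was not tested.

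Glia, 9 markers, summed to 25.28 to 383.0 CPM in BL6 MN and 48.32 to 108.2 CPM in the other MN libraries, with Olig2 at 0 in the hybrids. Endoderm and epithelium, 10 markers, summed to 121.3 to 433.2 CPM in BL6 MN, 201.1 in CAST, 312.8 to 327.4 in CAS129, 1023 and 1495 in 129 and 1463 in 129CAS. The motor neuron sum was 643 to 2023 CPM in BL6, 2280 in CAST, 578.5 and 818.4 in 129, 337.9 to 432.8 in CAS129 and 1506 in 129CAS. Mesenchyme and fibroblast markers summed to 53130 to 56510 CPM in CAS129, 29210 to 58090 in BL6, 22980 in 129CAS, 19310 and 28080 in 129 and 17540 in CAST. The part of these cells in the peptide levels was not tested.

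The genes whose levels most resembled Cartpt over the 14 MN libraries, among 13761 genes at a mean of 1 CPM or more, were Sncg (Pearson's r 0.972), D930028M14Rik (0.957) and Rhbdd2 (0.955). Sncg, which encodes gamma-synuclein, had means of 82.12 CPM in BL6, 403.7 in CAST, 103.1 in 129, 109.9 in CAS129 and 393.2 in 129CAS. Those most like Sst were Otp (0.958), Bhlhe22 (0.945) and Ap4s1 (0.935). Otp and Bhlhe22 encode transcription factors, and Otp had means of 4.526 CPM in BL6, 3.887 in CAST, 0.1083 in 129, 2.721 in CAS129 and 2.264 in 129CAS. These values describe likeness over libraries that share a genotype and a depth, and carry no test.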

How the data were processed

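RNA sequencing libraries of PSC and MN were used. The values are whole-number read counts per gene, deposited by the authors with no normalisation. Per the submitters' processing notes, STAR and the build GRCm38 (mm10) were used for the 20 libraries analysed. No source used here gives the counting program, annotation or strand setting. The names of 20 of 28 count columns matched a sample, and the other 8 columns were left out. The CAST MN column has no replicate number and was matched to the 1 sample titled so; a CAST neuron sample titled in another style was not analysed here, and all CAST MN values rest on this match. In all, 7 samples had no matched column and were not analysed here. GENCODE M21 gave symbols for 27030 identifiers and none for 41.

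The genes and lists were chosen with earlier results of these data known. Counts were tested with edgeR 4.0.16 in R 4.3.3 (TMM, glmQLFit, glmQLFTest, 2-sided, Benjamini-Hochberg adjustment over all genes tested, threshold 0.05) for genes that reached 1 CPM in 2 or more of the libraries fitted. MN was compared with PSC over 17 libraries with genotype as a term, and within genotypes in 1 fit of all 20. MN genotypes were compared over 14 libraries and PSC genotypes over 6. The CAST and 129CAS MN groups have 1 library each, so tests with them assume that they vary like the other groups. SE is the absolute log2 fold change over the square root of the F statistic. The fits were also run on simulated data with the same spread set for all genes. That spread was not taken from these genes, so no result here rests on that run. Counting intervals are 95% exact Poisson or binomial and cover counting error only.

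Named genes were all 10 neuropeptide genes and, of each pathway list, up to 4 called genes with the highest mean CPM in MN against PSC and up to 2 in each MN genotype comparison. Likeness names the 3 genes with the highest Pearson's r. Over 28 pairs of replicates the chi-square per degree of freedom was at least 2.96, so none was 1 library deposited again. Alternatives were RLE and upper-quartile scaling, DESeq2 1.42.0, no filter, filterByExpr, a replicate block and leaving out each library. Levels per Tubb3 or per pan-neuronal CPM, and fits with hybrid libraries left out, were added after seeing the data.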

Additional observations from a re-analysis of the deposited data

Results flagged for a closer look

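Adcyap1 in BL6 MN replicate 2 was at 68.5 CPM, against 12.66 to 36.12 CPM in the other 6 BL6 MN libraries. Its gap to the next library, over the range of the group, was above the 95% critical value of Dixon's test. Of 10 groups of libraries examined in this way, 1 for each gene in BL6 MN, this was the only one to pass, and chance alone passes about 1 in 20. Per 100 CPM of Tubb3, Adcyap1 in replicate 2 was at 5.983, beside 5.843 in replicate 5 and 5.599 in replicate 6. On that scale replicate 2 did not stand apart.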

How the results depend on the processing

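Each comparison was refitted under RLE and upper-quartile scaling, DESeq2, no filter, filterByExpr, a replicate block and with each library left out, and for comparisons without hybrids with the hybrid libraries left out. Counts of called genes stayed within 1.5 times in 564 refits and moved further in 20. Most of these counts were 0 in the main fit, so many of the 564 are counts that stayed at 0. The counts for MN against PSC include Cartpt and Sst, and there a fall from 9 to 6 within BL6 was taken as within 1.5 times. For CAST against BL6 in MN, 2 genes were called higher, 0 with the replicate block (Npy at 4.595 and Gal at 1.65) and 2 to 4 without single libraries. For 129 against BL6 in MN, 0 were called lower, 1 with RLE scaling, 1 with DESeq2, 2 with the replicate block (Gal and Calca) and 0 to 1 without single libraries. For 129CAS against CAS129, the 1 gene called higher became 0 with no filter and 0 to 1 without single libraries. For CAS129 against BL6 PSC, 0 called lower became 1 (Calca) with no filter. For the difference of MN against PSC, DESeq2 called 1 lower in CAS129 and 2 higher in CAST, against 0, and leaving out single libraries gave 0 to 1 higher in CAST. The cause of these changes was not tested. Hybrid libraries left out ended the calls of Npy in MN against PSC and Calca within BL6 (edgeR adjusted p = 0.073). Whether replicate numbers pair the libraries cannot be decided here. Of 31 same-numbered pairs between groups, 6 had deviations that correlated over 0.1. The values included 0.346 between BL6 and CAST PSC, 0.456 between CAST and CAS129 PSC and 0.573 between BL6 and 129 MN replicate 2. In groups of 2 libraries the deviations mirror each other, so such pairs are not independent. With the block, other calls that ended were Npy (2.11, edgeR adjusted p = 0.13) and Penk (1.44, 0.062) in MN against PSC, Calcb within BL6 (2.42, 0.095), Npy within CAS129 (6.50, 0.12) and Gal in 129CAS against CAS129 (1.43, 0.078). Calca within CAST (2.37, 0.0051) and CAS129 (1.51, 0.023) and Adcyap1 in 129CAS against CAS129 (2.48, 0.035) were called. All changes of sign were in genes without a call. With the replicate block these were Npy within BL6 (-0.45), Calca in the difference between CAS129 and BL6 (0.091), Npy (0.77) and Adcyap1 (-0.070) in 129 against BL6 MN, and Penk in CAS129 against BL6 PSC (-0.050). With upper-quartile scaling it was Nts in CAS129 against 129 MN (0.10). Leaving out single libraries gave log2 ranges that crossed 0. For MN against PSC within BL6 it was Npy (-0.39 to 2.42). For the difference between CAS129 and BL6 they were Tac1 (-0.76 to 4.98), Penk (-2.28 to 2.25), Calca (-0.66 to 0.28) and Calcb (-1.96 to 2.47), and for that between CAST and BL6 Calca (-0.35 to 1.94), Calcb (-0.44 to 5.27) and Adcyap1 (-2.26 to 1.68). In MN they were Npy (-0.37 to 0.13) and Calcb (-1.01 to 0.18) in 129 against BL6, Npy in CAS129 against BL6 (-0.86 to 1.08), and Npy (-0.75 to 1.18), Penk (-0.023 to 0.29) and Nts (-0.54 to 0.21) in CAS129 against 129. In PSC they were Penk (-0.023 to 1.12) and Gal (-1.94 to 0.14) in CAST against BL6, Penk (-3.24 to 1.14) and Gal (-0.94 to 0.13) in CAS129 against BL6, and Penk (-3.68 to 0.66), Gal (-0.47 to 1.63) and Calca (-1.10 to 1.19) in CAS129 against CAST. The median of all genes in the difference between CAS129 and BL6 was 0.261 with TMM and 0 with RLE scaling, in CAS129 against 129 MN -0.136 with TMM and 0.038 with upper-quartile scaling, and in CAS129 against CAST PSC -0.064 and 0.142.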
